A study of Mus musculus with 6 samples.

Results

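Huntingtin (Htt) and 8 genes listed as its partners were examined in C2C12 cells, a mouse myoblast line, after small interfering RNA (siRNA) against Htt. Whether each listed protein binds huntingtin directly was not examined. The members were chosen by name as huntingtin-interacting protein genes (Hap1, F8a, Hip1, Hip1r, Zdhhc17, Zdhhc13, Optn and Setd2), and each was read from its brightest probe set with a single gene symbol. Of the 9 genes, 8 were measured among 22180 genes in all, each by 1 probe set, and Optn was not analysed here. The series holds 6 microarrays of total RNA, 3 of cells transfected with a pool of siRNAs against Htt and 3 of cells transfected with scramble siRNA. Apart from the siRNA, both groups are described alike, as C2C12 grown in the supplier's standard medium. The labels call the first group HTT KO, while the design and treatment texts describe transient siRNA, so a partial reduction is what this model can give. The sources used here give neither the harvest time, nor the share of cells transfected, nor the siRNA sequences.

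Huntingtin is a very large scaffold protein that links vesicles to the dynein and kinesin motors and takes part in endocytosis, selective autophagy and transcription. Among the listed partners, HAP1 connects huntingtin to the motors and HAP40 (from F8a) to early endosomes. HIP1 and HIP1R work with clathrin and actin, and the enzymes ZDHHC17 and ZDHHC13 act on membrane attachment through palmitoylation. SETD2, also named huntingtin-interacting protein B, is the enzyme that places the trimethyl mark on lysine 36 of histone H3. The comparison asks whether transcripts of the partners followed the loss of Htt. The arrays measure RNA only, and HAP40 in particular is known as a protein whose stability depends on huntingtin.

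The Htt transcript was lower in every knockdown array. Its log2 value was 4.49, 4.47 and 4.65 in the knockdown arrays and 5.59, 5.60 and 5.72 in the controls, in the order of replicates 1, 2 and 3 kept throughout. The groups were separated by a gap of 0.94, wider than the spread inside either of them. The knockdown arrays kept 45.2%, 44.4% and 50.3% of the scramble mean, and the fitted log2 fold change was -1.10 ± 0.09 (standard error, n = 3 per group), with a 95% interval from -1.31 to -0.89. Htt had the smallest p of the 22180 genes in limma, with an adjusted p of 0.0559 by the Benjamini-Hochberg method, short of the threshold of 0.05. Without Htt siRNA replicate 2 the adjusted p was 0.00778, although the change was smaller (-1.07). The unadjusted p in limma was larger there, 1.3e-05 against 2.7e-06 with all arrays. That setting called 540 genes, and the adjusted p depends on the p-values of all genes. Over all alternatives the adjusted p of Htt lay between 0.00778 and 0.348. In bulk RNA, fewer cells with the transcript and less of it per cell cannot be told apart.

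**Figure D1:**
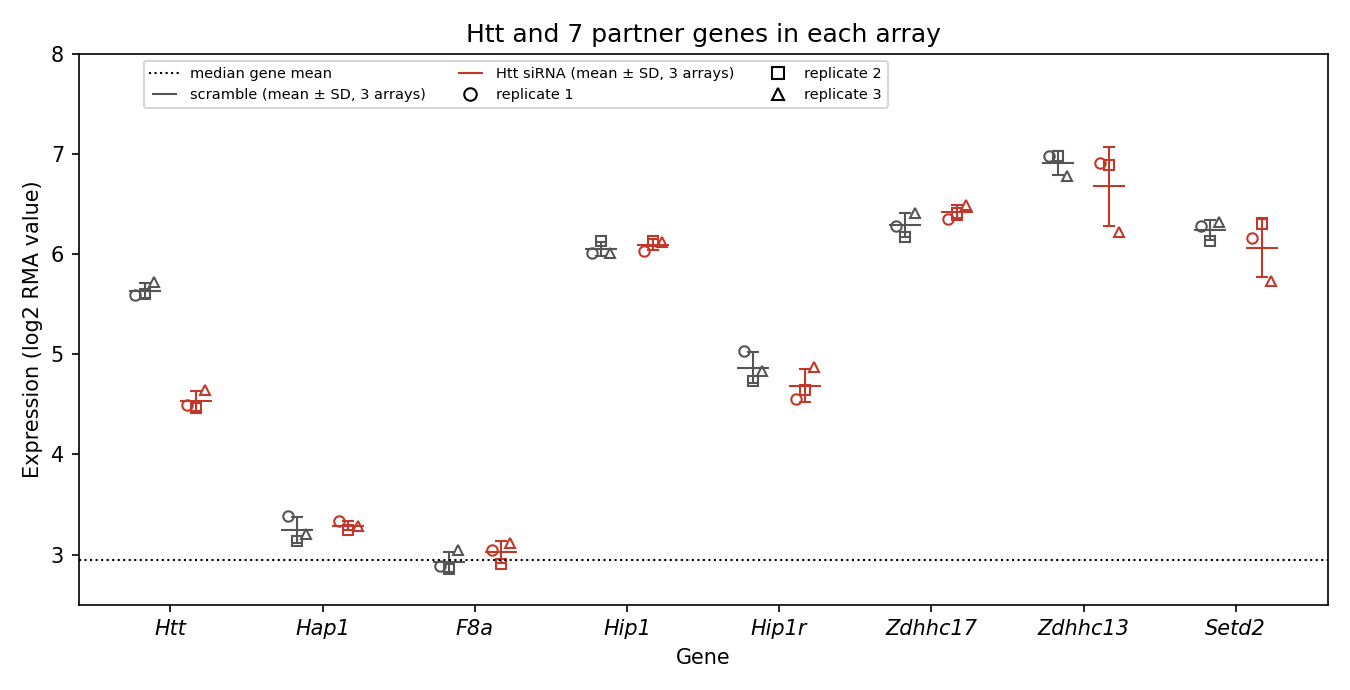
Log2 RMA value (vertical axis) of Htt and the 7 measured partner genes, in scramble (grey) and Htt siRNA (red) arrays; symbols are replicates, bars are mean ± SD over 3 arrays, and the dotted line is the median gene mean of 2.95. The Htt groups are separated by 0.94, while both groups overlap for each of the 7 partners.

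None of the partners showed a change that passed the test. Limma called 0 of the 7 measured partners, and 0 of them had an unadjusted p under 0.05. Over all genes 0% were called at the adjusted threshold and 10.9% had an unadjusted p under 0.05. Both groups overlapped for 7 of 7 partners, while 16.0% of all genes had groups without overlap (10.1% with every knockdown array higher and 5.91% with every one lower). The log2 fold changes ran from -0.24 for Zdhhc13 to 0.13 for Zdhhc17, with a median of 0.04 beside 0.03 for all genes. Of the 7, 4 had positive and 3 negative values, which became 2 and 5 once arrays were centred on their medians, so no direction is given for a partner near 0. The smallest unadjusted p among the partners was 0.173 (adjusted p = 0.624 in limma, Hip1r).

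Among the trafficking partners, Hap1 and F8a lay close to the level of the median gene. HAP1 is the adaptor that ties huntingtin to dynactin and kinesin and is best known from neurons. Hap1 stood at 3.33, 3.24 and 3.29 with Htt siRNA and at 3.39, 3.14 and 3.20 with scramble. Its highest and its lowest array were both scramble arrays, so the knockdown values sat inside the control range. The difference was 0.05 ± 0.09 on the log2 scale (95% interval -0.17 to 0.27). F8a encodes HAP40, the subunit that forms a stable complex with huntingtin. Its values were 3.04, 2.90 and 3.12 with Htt siRNA and 2.88, 2.86 and 3.04 with scramble. Only Htt siRNA replicate 3 lay above every control array, and the difference was 0.09 ± 0.10 (-0.13 to 0.32).

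Over the 6 arrays Hap1 averaged 3.26 and F8a 2.97, near the median gene mean of 2.95. The table holds no detection calls and probe sets differ in affinity, so whether either gene was above background, and whether a loss of the size of that of Htt would register on its probe set, was not tested. The other 5 partners averaged between 4.78 (Hip1r) and 6.80 (Zdhhc13), above the median gene mean of 2.95.

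The endocytic pair differed in how evenly its values ran. HIP1 binds clathrin and the AP2 adaptor, and its relative HIP1R links clathrin coats to actin. Hip1 was the steadiest member, at 6.03, 6.13 and 6.12 with Htt siRNA and 6.02, 6.13 and 6.01 with scramble. All 6 arrays fell within 0.12, and its spread within groups was smaller than that of all but 7.84% of genes. The change of 0.04 ± 0.08 had an interval from -0.15 to 0.24. Hip1r was 4.55, 4.64 and 4.87 with Htt siRNA against 5.04, 4.73 and 4.83 with scramble. Htt siRNA replicates 1 and 2 lay below all control arrays, but replicate 3 lay above scramble replicates 2 and 3. The resulting value was -0.18 ± 0.12 (-0.46 to 0.10). The change of Hip1 exceeded that of Hip1r by 0.22 (exact two-sided permutation p = 0.2, n = 3 per group).

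The palmitoyltransferases ZDHHC17 (HIP14) and ZDHHC13 (HIP14L) are related ankyrin-repeat enzymes that attach palmitate to proteins, with huntingtin itself a known substrate. Zdhhc17 stood at 6.35, 6.41 and 6.50 with Htt siRNA and 6.29, 6.17 and 6.41 with scramble. The upper 2 knockdown arrays exceeded all controls by little, and the difference was 0.13 ± 0.10 (-0.09 to 0.35). Zdhhc13 was 6.91, 6.89 and 6.22 with Htt siRNA and 6.99, 6.98 and 6.78 with scramble. Its low mean after knockdown came from Htt siRNA replicate 3 alone, which lay 0.55 below the next lowest array. The fitted value was -0.24 ± 0.19 (-0.67 to 0.20), and -0.0096 without that array. Zdhhc17 changed by 0.37 more than Zdhhc13 (exact two-sided permutation p = 0.3, n = 3 per group). Over the 21 pairs of partners compared in this way the smallest exact p was 0.1, the least that 3 against 3 can give, and the smallest adjusted p was 0.525.

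Setd2, the nuclear partner, had the same low array as Zdhhc13. Its values were 6.16, 6.30 and 5.74 with Htt siRNA and 6.28, 6.13 and 6.32 with scramble. Htt siRNA replicate 3 was 0.39 below the next lowest array, and the other knockdown arrays lay within the control range. The log2 fold change was -0.18 ± 0.15 (-0.53 to 0.17), and -0.013 without that array. Relative to the scramble mean, replicate 3 stood at -0.69 for Zdhhc13 and -0.51 for Setd2, but at 0.21 for Zdhhc17 and -0.99 for Htt. Over all genes, 1.65% had Htt siRNA replicate 3 as the lowest array by at least 0.3, and this share ran from 0.162% to 1.91% in the other 5 arrays.

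**Figure D2:**
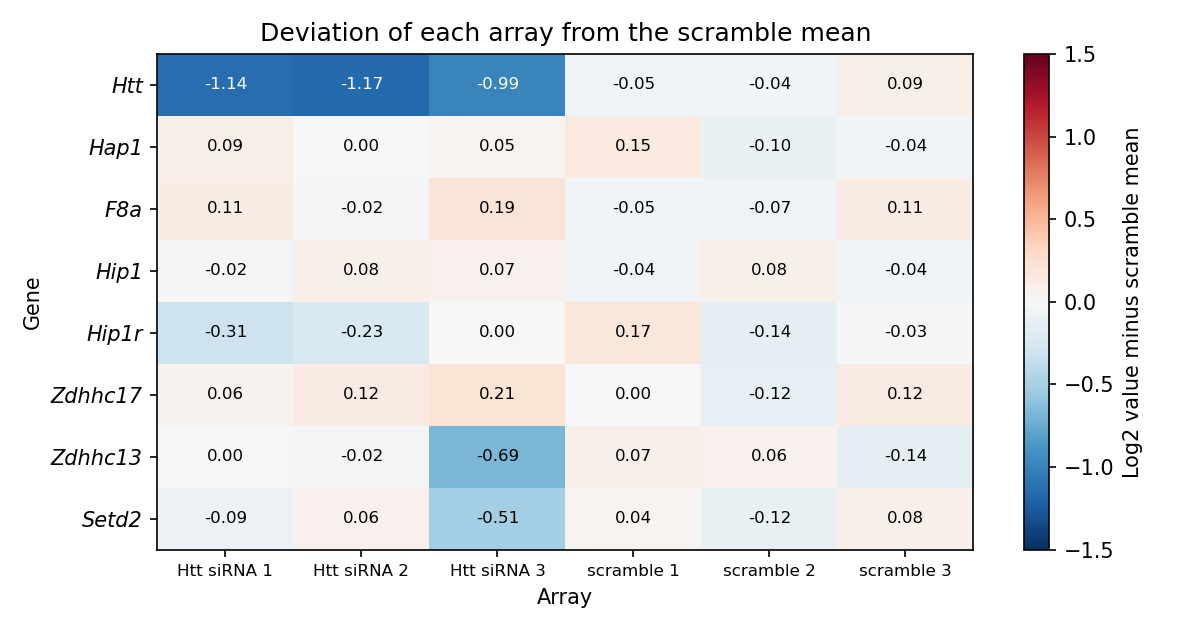
Log2 value of each gene (rows) in each array (columns) minus that gene's scramble mean, from blue (lower) to red (higher). The 3 Htt siRNA arrays are low for Htt (-1.14, -1.17 and -0.99); among the partners the lowest cells are Zdhhc13 (-0.69) and Setd2 (-0.51), both in Htt siRNA replicate 3.

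Leaving Hap1 and F8a aside, the other 5 partners did not share the size of the loss of Htt. Nearly all genes did not, so this is not particular to the partners. The 95% interval of each of these 5 lay wholly above that of Htt, as it did for 97.0% of all other genes. The lowest bound, -0.67 for Zdhhc13, corresponds to 62.9% of the scramble level, against 46.6% for Htt (95% interval 40.2 to 53.9%). When the change of a partner was set against that of Htt within the same arrays, the difference ran from 0.87 ± 0.22 (Zdhhc13) to 1.23 ± 0.11 (Zdhhc17). These 5 passed the test of that difference in limma, with adjusted p between 7.7e-06 and 0.00263, and 98.3% of all genes other than Htt passed it too. The tests share Htt's values, so they are not independent. The differences for Hap1 (1.15) and F8a (1.20) are given as values only, because of the limit stated above for their probe sets.

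**Figure D3:**
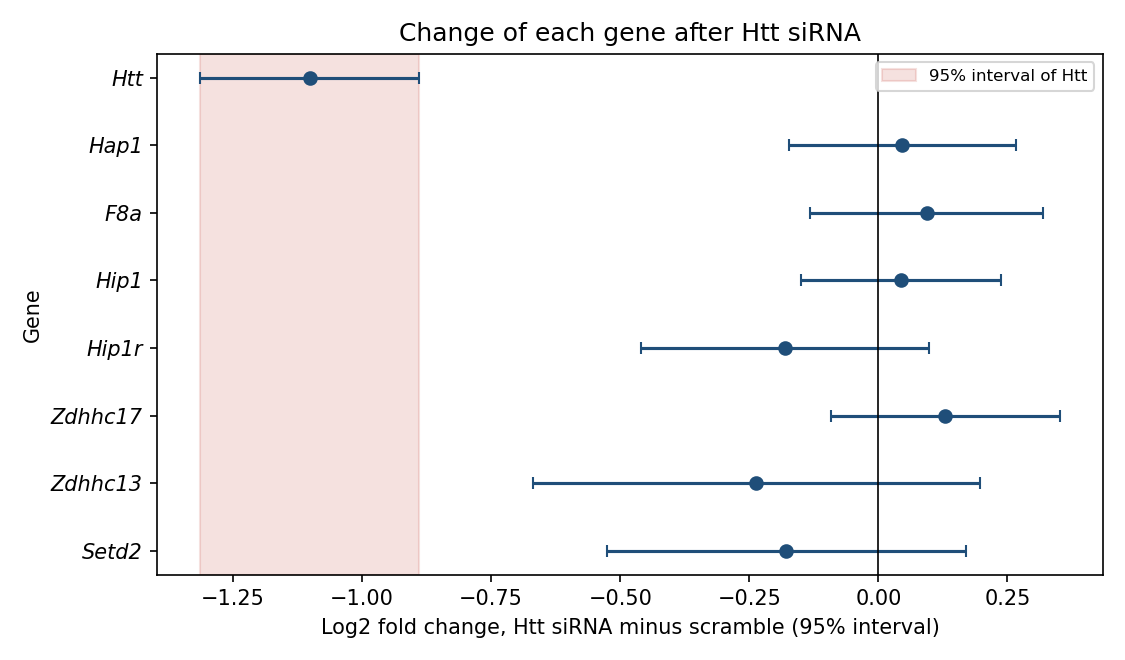
Log2 fold change (Htt siRNA minus scramble, horizontal axis) with its 95% interval for Htt and the 7 partners, 3 arrays per group; the shaded band is the interval of Htt, -1.31 to -0.89. No partner interval reaches the band, and each of the 7 includes 0. For Hap1 and F8a, whether their probe sets would register a loss of that size was not tested.

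Similarity of the array profiles gave a further view. Each gene was centred on its own 6-array mean, and its root-mean-square difference from Htt over the 6 arrays was taken on the log2 scale. The median gene differed from Htt by 0.582. Hip1r came nearest among the partners (0.476), with 8.77% of genes nearer than it, followed by Setd2 (0.516, 18.0% nearer) and Zdhhc13 (0.529, 22.2% nearer). For Hip1r, Htt siRNA replicates 1 and 2 lay at -0.31 and -0.23 from the scramble mean. Its replicate 3 lay at 0.0013, where Htt stood at -0.99. For Setd2 and Zdhhc13, only Htt siRNA replicate 3 lay far below the scramble mean (-0.51 and -0.69). Htt siRNA replicates 1 and 2 of both genes lay between -0.09 and 0.06. For Hip1, Hap1, F8a and Zdhhc17 the share of nearer genes lay between 48.2% and 69.4%. Among genes above the median level, the 5 nearest to Htt were Exog, a mitochondrial nuclease (0.175), the kinase gene Sgk1 (0.181), Plet1 (0.182), the Wnt inhibitor gene Apcdd1 (0.191) and the transporter gene Flvcr1 (0.210). Their log2 fold changes lay between -1.12 (Plet1) and -0.71 (Flvcr1). These genes were picked for that pattern, and their values are a description.

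Genes that work beside the partners gave no adjusted call either: in each of 7 lists 0 members passed limma's adjusted threshold, and the counts below are at an unadjusted p under 0.05, which 5.72% of all genes reached upwards and 5.14% downwards (620 against 1893 genes once arrays were centred on their medians, from 1269 against 1140). Of 22 other huntingtin-binding proteins 1 was higher and 0 lower, with a median log2 fold change of 0.02. The higher gene was Pacsin1, an endocytic adaptor (0.38 ± 0.13), which averaged 2.88 with scramble, near the median gene. The transglutaminase Tgm2 (0.43 ± 0.21) and the autophagy kinase Ulk1 (0.25 ± 0.12) came next by p. Of 9 genes of the HAP1 complex and its cargo, 0 reached that p in either direction, with a median of 0.04. The neurotrophin receptor Ntrk2 was nearest (-0.16 ± 0.09), but it averaged 2.32 with scramble, below the median gene. The dynactin subunit Dctn1 (0.10 ± 0.10) and the kinesin Kif5a (-0.07 ± 0.09) followed. Kif5a averaged 3.07 with scramble, near the median gene. For 8 RAB5 endosome genes the counts were also 0 and 0, with Rabep1, the RAB5 effector rabaptin, at 0.27 ± 0.14, Rab11a at -0.17 ± 0.12 and Appl1 at 0.12 ± 0.10.

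Of 15 clathrin and AP2 genes, Hip1 and Hip1r included, 1 was higher and 1 lower (median -0.02). The clathrin light chain Cltb was lower, at 5.96, 6.35 and 5.80 with Htt siRNA against 6.31, 6.48 and 6.53 with scramble (-0.40 ± 0.15, adjusted p = 0.416 in limma). Its groups overlapped through Htt siRNA replicate 2, which exceeded scramble replicate 1. The higher gene, the neuronal clathrin assembly protein Snap91 (0.33 ± 0.09), averaged 2.21 with scramble, below the median gene. Dynamin 2 (Dnm2), which severs coated pits, had a value of 0.23 ± 0.14.

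Of 23 palmitoyltransferases of the DHHC family, both members included, 2 were higher and 1 lower (median -0.03). Zdhhc15 was 4.84, 4.68 and 4.88 with Htt siRNA and 4.51, 4.21 and 4.22 with scramble, with no overlap (0.49 ± 0.11, adjusted p = 0.299 in limma). Zdhhc9, a RAS palmitoyltransferase, was also higher (0.31 ± 0.12), and Zdhhc21 was lower (-0.33 ± 0.14). The changes of Zdhhc17 and Zdhhc13 thus lay inside the range of their own family.

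Optineurin itself was not analysed here, but 13 of its partners and related autophagy receptors were. Of these 1 was higher and 0 lower, and 11 of 13 had positive values, as did 12919 of all 22180 genes. The median was 0.12 beside 0.03 for all genes, and the mean of the list, 7.24 ± 0.13 with Htt siRNA and 7.11 ± 0.12 with scramble (SD), did not separate the groups (exact two-sided permutation p = 0.4, n = 3 per group). Calcoco1, an autophagy receptor and coactivator, was 9.13, 8.81 and 9.19 with Htt siRNA and 8.54, 8.02 and 8.76 with scramble (0.60 ± 0.19, adjusted p = 0.387 in limma). Every knockdown array exceeded every control, but Htt siRNA replicate 2 exceeded scramble replicate 3 by little. Map1lc3a, an LC3 gene of the autophagosome membrane, had a value of 0.32 ± 0.14, and Tbc1d17, a RAB GTPase regulator that binds optineurin, 0.22 ± 0.10.

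Of 10 enzymes that add or remove methyl groups at histone H3 lysine 36, Setd2 included, 0 were higher and 1 lower (median 0.05). Nsd2, which makes the dimethyl mark, was 5.95, 6.34 and 6.06 with Htt siRNA and 6.45, 6.78 and 6.58 with scramble, without overlap (-0.48 ± 0.13, adjusted p = 0.345 in limma). Kdm4c (0.23 ± 0.11) and Kdm2a (0.12 ± 0.08), both demethylases, were the next by p.

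**Figure D4:**
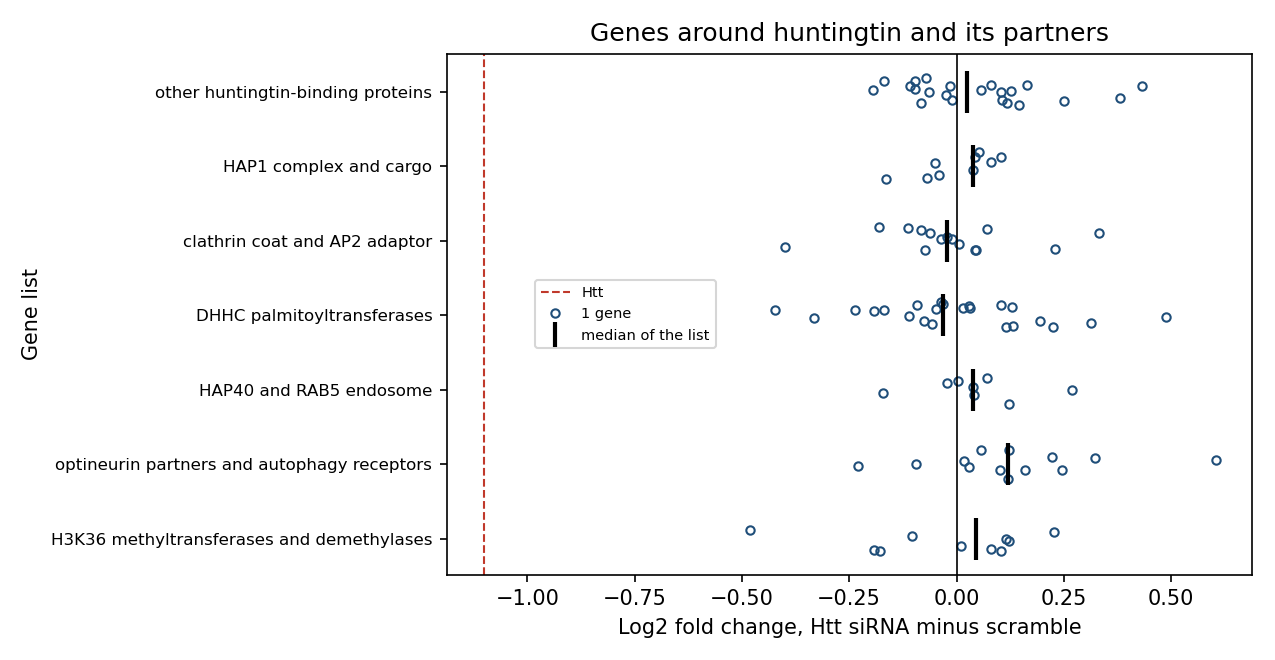
Log2 fold change (Htt siRNA minus scramble) of each gene (open circles) in 7 lists of genes around huntingtin and its partners, with the median of each list (black bar) and the value of Htt (dashed line, -1.10). All 7 medians lie between -0.03 and 0.12, and no gene of these lists reaches the value of Htt.

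Of 10 muscle markers 9 averaged above the median gene over the 6 arrays, with Des at 10.2 and Cav3 the exception at 2.37. Among other markers 0 of 4 endothelial, 0 of 4 adipocyte and 1 of 5 leukocyte ones did. So did 2 of 4 epithelial and 5 of 8 neuronal markers. Without detection calls, a level above the median gene does not show that a marker was present. The mean of the 10 muscle markers was 7.65 to 7.94 with Htt siRNA and 7.06 to 7.44 with scramble. The mean of 19 sarcomere genes was 4.08 to 4.81 with Htt siRNA and 3.33 to 3.79 with scramble. The mean of 20 S phase genes was 5.39 to 6.71 and 6.52 to 7.13. A list of 19 stress response genes averaged 8.12, 6.24 and 8.16 after knockdown and 8.26, 6.49 and 6.90 in controls, so it separated arrays across the groups. By the same naming rule, the sarcomere genes with the smallest p were Acta1 (1.35 ± 0.23), Neb (1.25 ± 0.21) and Actc1 (2.21 ± 0.38), and the S phase genes Cdc6 (-1.29 ± 0.33), Mcm6 (-1.07 ± 0.32) and Mcm2 (-1.01 ± 0.31). Those of the stress list were Dnajb11 (0.55 ± 0.31), Creld2 (0.73 ± 0.55) and Slc7a11 (-1.27 ± 1.00), with a standard error close to the value in the last. In each of the sarcomere, S phase and stress lists 0 genes passed limma's adjusted threshold. The adjusted p in limma was 0.174 to 0.181 for the named sarcomere genes and 0.318 to 0.382 for those of S phase. For the named stress genes it was 0.565 to 0.684. The part of these lists in the values of Nsd2, Cltb, Calcoco1 and Zdhhc15 was not tested. With the stress level as a covariate the 7 partners lay between -0.21 (Zdhhc13 and Hip1r) and 0.13 (Zdhhc17), and 0 had an unadjusted p under 0.05.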

How the data were processed

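The authors deposited log2 expression values for 41345 probe sets on 6 arrays, made with RMA and the affy package per the submitters' processing notes, without versions. RMA corrects background, equalises the distributions of the arrays and summarises probes, which compresses weak signals. Array medians lay between 2.59 and 2.67. Of the probe sets, 23521 had 1 symbol in the platform annotation, 1814 had several and 16010 were not listed. For each of 22180 genes the brightest single-symbol probe set was used, with no filter on dim genes.

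Groups were compared with limma 3.58.1 in R 4.3.3 (lmFit and eBayes, group as the only term, two-sided), adjusted over all genes at 0.05. The code was tested on simulated data. The labels do not say whether replicates were separate cultures, so the spread behind each p-value may be technical. The number of arrays limits the precision.

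The members and lists were chosen with earlier results of these data known. All members are named. Of each list, the 3 genes with the smallest p are named, and for Htt the 5 nearest profiles. Of the markers, only levels are used. Alternatives were a replicate block, repeated quantile normalization, median centring, a filter at the median level, mean of probe sets, array weights, trend and robust eBayes, the stress list's level as a covariate, and leaving out each array.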

Additional observations from a re-analysis of the deposited data

How the results depend on the processing

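Over 14 alternatives, 0 of 98 partner values passed the adjusted threshold or had an unadjusted p under 0.05. The lowest unadjusted p in limma, 0.0600, was that of Hip1r without Htt siRNA replicate 3. Signs turned for Hap1 and Hip1 with arrays centred on their medians (-0.016 and -0.019) and for Hap1 when an array was left out (-0.0056 to 0.12). Hap1 and F8a aside, the changes set against Htt passed in 70 of 70 values. In the main fit 98.3% of all genes other than Htt passed that test too. Htt passed in 8 of 14 settings: with the replicate block, among genes above the median level and with trend and robust eBayes (-1.10 each), with repeated quantile normalization (-1.04), centring (-1.16), array weights or the stress covariate (-1.11 each) and without Htt siRNA replicate 2. Leaving out arrays gave -1.16 to -1.06 for Htt. The count of called members was then 1 in each of these 8 settings, and 0 to 1 when arrays were left out. Over all genes, limma called 98 with the replicate block, 78 with the stress covariate, 4 with trend and robust eBayes, 3 with repeated quantile normalization, centring or the level filter, 1 with array weights, and 0 to 540 when arrays were left out (540 without Htt siRNA replicate 2). The causes were not tested. The replicate numbers were not taken as pairs in the main fit because the labels state no covariate. Deviations of same-numbered arrays correlated with r = 0.35, 0.36 and 0.0064 across genes. Of the 6 arrays, 4 correlated best with their own number. These values do not settle whether the replicates were paired. Without detection calls, the signal of Hap1 and F8a over background is unknown.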
